A study of Mus musculus with 16 samples.

Results

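Mitochondrial mass and shape in fat cells are set by a small group of nuclear genes, and 10 of them are described here across a gain-of-function RNA-seq experiment in mouse brown adipocytes. They comprise the coactivator gene *Ppargc1b*, the nuclear receptor genes *Esrra* and *Esrrg*, the transcription factor genes *Nrf1* and *Gabpa*, the mitochondrial DNA factor gene *Tfam*, the fusion genes *Mfn1*, *Mfn2* and *Opa1* and the fission gene *Dnm1l*. The 10 genes were taken by symbol from the 54347 genes of the count table, not by a threshold on a measured value. Of the 10, 9 were among the 13150 genes with enough counts to be tested, and *Esrrg* was not.

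The cells were wt1-SAM brown adipocytes, derived from immortalized brown preadipocytes with a stable CRISPRa SAM system, a dead Cas9 with activator proteins that turns up transcription where a single guide RNA (sgRNA) leads it. Every group shared this line and a differentiation with rosiglitazone, T3, dexamethasone, insulin, indomethacin and IBMX, then took up 250 ng of plasmid on day 4 and was collected on day 7. The plasmid was the empty vector or a pair of vectors with guides against the lncRNA *Gm15551*, and the last 24 h passed without or with 1 µM isoproterenol, a β-adrenergic agonist. This gave 4 groups of 4 libraries (empty control, empty isoproterenol, sgRNA control and sgRNA isoproterenol), in each of which the replicate numbers 3, 4, 5 and 6 occurred once. The sources do not state whether the line is a single clone or whether the replicates were separate cultures, so p-values measure the spread between these libraries, which may be technical.

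Nuclear genes encode almost all mitochondrial proteins, and coactivators of the PGC-1 family, among them PGC-1α (*Ppargc1a*) and PGC-1β (*Ppargc1b*), raise their transcription by docking on factors such as the oestrogen-related receptors ERRα and ERRγ (*Esrra*, *Esrrg*), NRF1 and GABP, whose DNA-binding subunit is encoded by *Gabpa*. One target of these factors is *Tfam*, whose product packages and transcribes mitochondrial DNA. Mitofusins (*Mfn1*, *Mfn2*) join outer membranes, OPA1 joins inner membranes and shapes cristae, and the dynamin-related GTPase DRP1 (*Dnm1l*) constricts mitochondria at fission. In brown fat, cold and β-adrenergic signalling are known to call on the PGC-1 coactivators, and adrenergic signalling is known to promote mitochondrial fragmentation through DRP1.

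Total counts ranged from 9053521 to 16546187 per library. A single gene annotated as ribosomal RNA held between 11.7% and 51.8% of them, with means of 29.0% ± 12.8 in empty control, 36.8% ± 12.8 in empty isoproterenol, 19.1% ± 1.11 in sgRNA control and 21.1% ± 7.18 in sgRNA isoproterenol libraries (SD, n = 4). Its share was above 40% in replicate 5 of empty control and in replicates 3 and 5 of empty isoproterenol, so results are also given without these 3 libraries. *Gm15551*, the targeted gene, had 3 to 18 counts in empty control, 0 to 5 in empty isoproterenol, 19 to 56 in sgRNA control and 13 to 26 in sgRNA isoproterenol libraries, and was higher with the sgRNAs in 8 of 8 pairs of the same treatment and replicate number. The adipocyte genes *Fabp4* and *Adipoq* were at 8215 to 19506 and 249 to 1019 CPM (counts scaled to a common library size, with TMM factors). Brown adipocyte genes were uneven. *Elovl3* was at 158 to 443 CPM, *Ebf2* at 10.8 to 21.1 CPM and *Ppara* at 5.15 to 26.2 CPM. *Cidea* was at 0.657 to 18.8 CPM, *Prdm16* at 0.424 to 2.17 CPM and the thermogenic gene *Ucp1* at 0 to 15.5 CPM. *Dio2* had at most 1 count and *Zic1* at most 3 counts.

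Promoter sequences of the members are shown because several of the factors on this list are known to bind near start sites of the others. RefSeq (GRCm38.p6) gave 16 windows for 9 of the 10 members, each from 250 bases before to 50 bases after an annotated start site, and none for *Ppargc1b*. On both strands, CCGGAAG, the ETS core bound by GABP, occurred in 4 of the 16 windows (*Gabpa*, *Tfam*, *Mfn1* and *Dnm1l*), whereas 8.86% of all 32851 windows held it. GCATGCG, the core of the NRF1 site, occurred in 4 of the 16 windows (*Gabpa*, *Esrra*, *Opa1* and *Esrrg*), against 3.58% of all windows. The core of the ERR site, AAGGTCA, and a cAMP response element core, TGACGTC, were found in 0 of the 16 windows, against 4.72% and 3.21% of all windows, which says only that these letters are not in these windows. The 250 bases before the start site follow 5′ to 3′ on the gene's strand for the member that rose with isoproterenol when replicate numbers were blocked (*Gabpa*) and for 3 further members with a match, and capitals mark the matches.
Gabpa (chr16:84834874-84835123, plus strand): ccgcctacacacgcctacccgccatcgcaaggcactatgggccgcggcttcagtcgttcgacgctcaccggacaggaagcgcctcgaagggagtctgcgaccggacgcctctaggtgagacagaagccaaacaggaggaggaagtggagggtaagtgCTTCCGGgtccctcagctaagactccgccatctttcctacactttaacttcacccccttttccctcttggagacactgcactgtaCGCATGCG
Tfam (chr10:71238045-71238294, minus strand): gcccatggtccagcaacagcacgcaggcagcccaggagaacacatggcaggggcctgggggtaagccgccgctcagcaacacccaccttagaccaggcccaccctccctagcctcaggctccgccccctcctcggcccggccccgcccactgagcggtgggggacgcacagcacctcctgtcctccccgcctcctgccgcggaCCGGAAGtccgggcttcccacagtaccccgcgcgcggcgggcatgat
Mfn1 (chr3:32529232-32529481, plus strand): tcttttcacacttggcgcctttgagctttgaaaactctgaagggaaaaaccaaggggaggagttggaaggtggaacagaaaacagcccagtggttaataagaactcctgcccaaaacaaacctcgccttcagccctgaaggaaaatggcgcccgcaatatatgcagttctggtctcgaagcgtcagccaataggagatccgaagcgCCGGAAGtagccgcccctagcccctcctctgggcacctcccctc
Esrra (chr19:6921809-6922058, minus strand): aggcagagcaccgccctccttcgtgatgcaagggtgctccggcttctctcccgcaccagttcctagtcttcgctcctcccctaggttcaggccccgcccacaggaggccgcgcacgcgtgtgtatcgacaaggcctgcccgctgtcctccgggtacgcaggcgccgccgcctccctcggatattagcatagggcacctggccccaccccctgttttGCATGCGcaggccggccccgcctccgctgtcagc
The ETS core lay 47 to 41 bases before the start site in *Tfam* and 44 to 38 bases before it in *Mfn1*, both on the gene's strand, and 93 to 87 bases before it on the opposite strand in *Gabpa*. In *Gabpa*, the last 8 bases before the start site read as the NRF1 core on both strands, so the 2 matches overlap. The NRF1 core of *Esrra* lay 34 to 28 bases before its start site. All these start sites are those of RefSeq. The GENCODE gene models, whose coordinates are given below, begin further upstream for *Tfam* (chr10:71238280) and *Gabpa* (chr16:84834925). The *Tfam* and *Gabpa* matches therefore lie inside those gene models. A match is a description of the letters and does not show that the factor is bound in these cells.

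The steady-state levels of the members fell into a wide range once divided by exon length. Mean levels over the 16 libraries, in CPM per kb of merged exons, were 24.5 ± 2.30 for *Dnm1l*, 17.3 ± 1.40 for *Opa1*, 15.3 ± 1.28 for *Tfam*, 14.5 ± 1.61 for *Gabpa*, 12.4 ± 2.37 for *Mfn2*, 8.76 ± 2.85 for *Esrra*, 6.44 ± 0.855 for *Mfn1*, 5.58 ± 1.77 for *Ppargc1b* and 2.19 ± 0.184 for *Nrf1* (SD, n = 16). On this scale the fission GTPase gene was the most abundant of the shape genes and *Mfn2* exceeded its paralog *Mfn1*, whereas in CPM not divided by length *Opa1* (136.6) lay above *Dnm1l* (127.3). Neighbours in this order overlapped in their ranges except *Dnm1l* over *Opa1* and *Ppargc1b* over *Nrf1*, where the ranges over the 16 libraries were separate. Both separations rest on the division by length. In CPM, *Nrf1* (mean 22.6, range 20.1 to 27.0) overlapped *Ppargc1b* (22.3, 13.4 to 35.0), and *Opa1* (123.2 to 158.0) overlapped *Dnm1l* (108.4 to 147.7). Merged exons pool all annotated transcripts, 20 for *Nrf1* and 3 for *Ppargc1b*, and are not the length of a transcript. *Tfam* was above *Gabpa* in only 9 of 16 libraries. *Esrrg*, the gene of ERRγ, had 0 or 1 count in every library and is not described further. The counts behind these levels ran from 104 to 468 for *Ppargc1b*, from 120 to 857 for *Esrra* and from 170 to 365 for *Nrf1*, and from 285 to 2611 for the other 6 genes.

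The members differed in how steady they were. *Opa1*, *Tfam* and *Nrf1* had coefficients of variation of 8.08%, 8.34% and 8.40% over all 16 libraries, and *Dnm1l* of 9.42%. *Esrra* and *Ppargc1b* stood at the other end with 32.6% and 31.7%, and the highest *Esrra* level was 3.78 times its lowest.

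**Figure D1:**
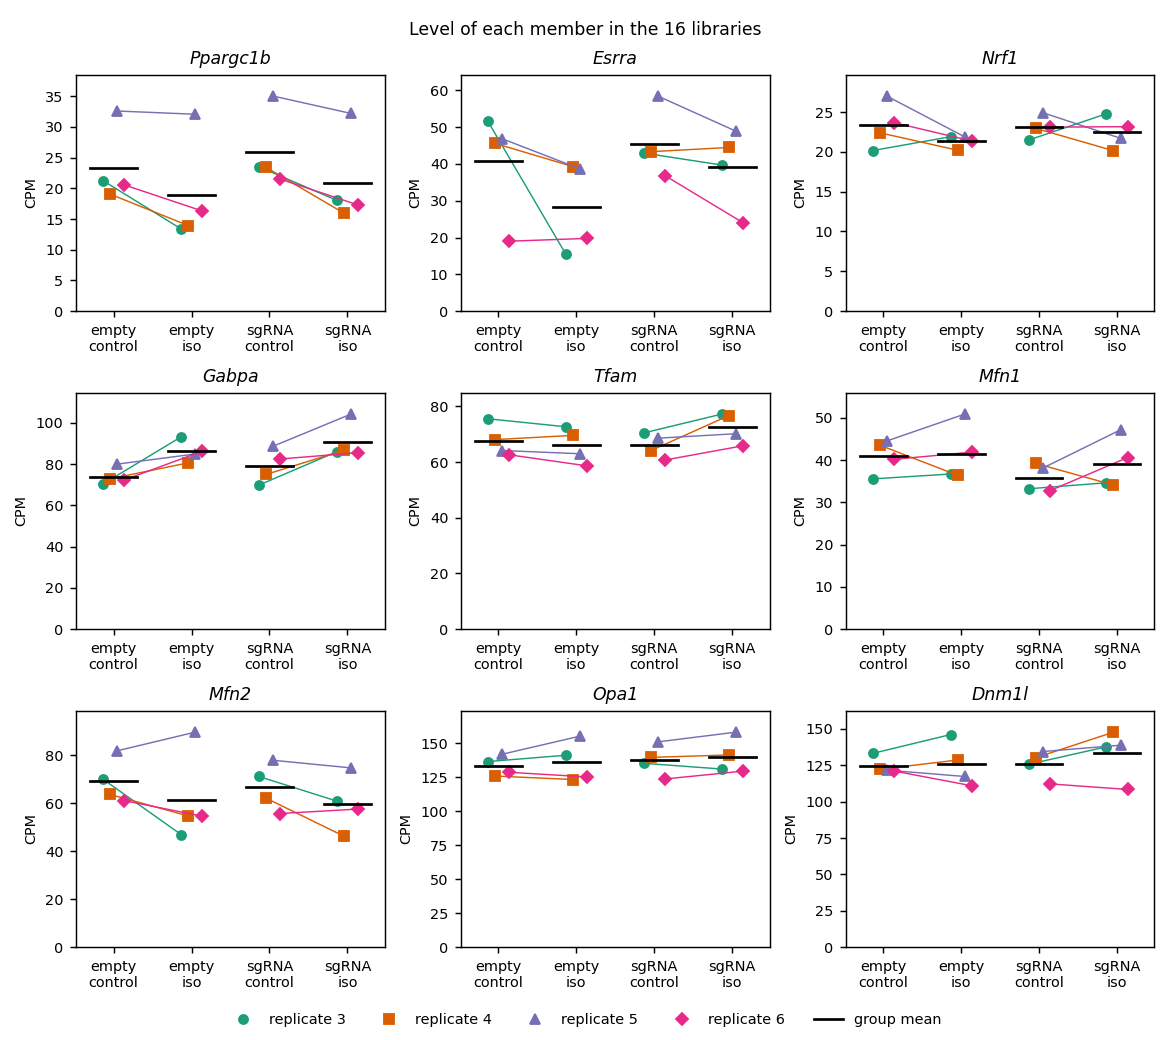
Level of each of the 9 tested members in CPM (TMM-scaled, linear axis from 0) in the 16 libraries. Points are libraries, symbols give the replicate number, lines join the control and isoproterenol library of one number and plasmid, and black bars are group means (n = 4). *Ppargc1b* of replicate 5 sits at 32.1 to 35.0 CPM in all groups, and every *Gabpa* line rises.

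To ask how β-adrenergic stimulation changes these genes, isoproterenol was compared with control, averaged over both plasmids. In the test without a replicate term (the quasi-likelihood F-test of edgeR, adjusted by Benjamini-Hochberg over 13150 genes), 0 of the 9 tested members passed at an adjusted p under 0.05, against 4.49% of all tested genes, and 1 member had an unadjusted p under 0.05, against 17.7% of all genes. DESeq2 passed 1 member, *Gabpa*, against 7.4% of all genes. With the replicate number as a block, 2 of 9 members passed, *Gabpa* upward and *Ppargc1b* downward, a share near the 21.3% of all tested genes that passed (10.9% higher and 10.4% lower), and 4 had an unadjusted p under 0.05, against 33.5%. Libraries of the same number deviated together in all groups, so values with the block are given, beside those without it where the 2 fits differ in a call. Where a gene passed in neither fit, a single value may stand alone, named by its fit.

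*Gabpa*, the DNA-binding subunit of GABP (ENSMUSG00000008976.16, GRCm38 chr16:84834925-84863779, plus strand), was the member that rose with the block. In replicates 3, 4, 5 and 6 it read 70.4, 72.9, 79.98 and 72.3 CPM in empty control and 93.1, 80.6, 84.9 and 86.2 CPM in empty isoproterenol libraries. With the sgRNAs it read 69.8, 75.0, 88.6 and 82.5 CPM in control and 86.0, 86.7, 104 and 85.5 CPM in isoproterenol libraries. The lowest empty isoproterenol value thus lay above the highest empty control value, by less than 1 CPM, whereas the sgRNA groups overlapped through replicate 5 of the control. For no other member were the isoproterenol and control groups of one plasmid, or the plasmid groups of one treatment, free of overlap, and 4.08% of all tested genes had separate empty control and empty isoproterenol groups. *Gabpa* was higher with isoproterenol in 8 of 8 pairs, as were 8.16% of all tested genes. The log2 fold change was 0.21 (SE 0.07, adjusted p = 0.0884) without the block and 0.21 (SE 0.05, 95% interval 0.10 to 0.32, adjusted p = 0.00774) with it, a rise of 15.8%. Within a single plasmid the blocked log2 fold changes were 0.22 (adjusted p = 0.0657) in empty and 0.20 (adjusted p = 0.107) in sgRNA cells, each from 4 pairs. In sgRNA cells it passed when the 3 libraries above 40% ribosomal RNA were left out (0.20, adjusted p = 0.0299 with the block). These 3 were all empty vector libraries, and in empty cells *Gabpa* did not pass without them (0.20, adjusted p = 0.172 with the block). With the ribosomal RNA share as covariate beside the block it passed in neither empty (0.24, adjusted p = 0.0860) nor sgRNA cells (0.20, adjusted p = 0.104). Exons of *Gabpa* and of *Atp5j* on the opposite strand share bases, and the use of read strand was not stated, so reads there cannot be assigned with certainty. *Atp5j*, which encodes an ATP synthase subunit, moved the other way, with a log2 fold change of −0.27 (adjusted p = 0.257) without and −0.27 (adjusted p = 0.00529) with the block.

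*Ppargc1b* encodes PGC-1β (ENSMUSG00000033871.14), a coactivator that drives oxidative genes in fat and muscle. In replicates 3 to 6 it read 21.2, 19.1, 32.6 and 20.6 CPM in empty control, 13.4, 13.9, 32.1 and 16.3 CPM in empty isoproterenol, 23.5, 23.4, 35.0 and 21.5 CPM in sgRNA control and 18.0, 15.96, 32.2 and 17.3 CPM in sgRNA isoproterenol libraries. Replicate 5 was far above the others in every group, so the treated and untreated groups overlapped, yet the isoproterenol library was the lower of its pair in 8 of 8 pairs, as for 7.67% of all tested genes. Pair differences in log2 CPM ran from −0.66 to −0.02, with the smallest in replicate 5 of the empty vector. Without the block the log2 fold change was −0.31 (SE 0.20, adjusted p = 0.483), and with it −0.35 (SE 0.07, 95% interval −0.49 to −0.20, adjusted p = 0.00226), and the level decreased by 21.3%. The blocked values within each plasmid were −0.35 (adjusted p = 0.0383) in empty and −0.34 (adjusted p = 0.0386) in sgRNA cells, where 9.57% and 8.4% of all tested genes passed. The call in empty cells was lost when the ribosomal RNA share entered as covariate (−0.36, adjusted p = 0.0686) and without the 3 libraries above 40% (−0.39, adjusted p = 0.0724), and within either plasmid it held in only 1 of the 4 blocked fits that left out a replicate number, the one without replicate 5. When replicate 5 was left out of all groups, the log2 fold change without the block was −0.45 with an adjusted p of 0.00994. Leaving out single libraries, also without the block, moved it from −0.49 (without replicate 5 of empty isoproterenol) to −0.21 (without replicate 5 of empty control), and it passed in none of these 16 fits.

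The value of both genes was also read against the ribosomal RNA share. With that share as a covariate beside the block, the isoproterenol log2 fold change was 0.22 (adjusted p = 0.0111) for *Gabpa* and −0.35 (adjusted p = 0.00471) for *Ppargc1b*. Without the 3 libraries above 40%, and with the block, it was 0.20 (adjusted p = 0.00915) and −0.36 (adjusted p = 0.00283). Neither gene passed under these settings without the block. The covariate then gave 0.19 (adjusted p = 0.104) for *Gabpa* and −0.42 (adjusted p = 0.190) for *Ppargc1b*, and the 13 remaining libraries gave 0.21 (adjusted p = 0.187) and −0.36 (adjusted p = 0.387).

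*Esrra* encodes ERRα, a nuclear receptor on genes of oxidative phosphorylation (ENSMUSG00000024955.15, GRCm38 chr19:6910977-6921813, minus strand). It read 51.6, 45.6, 46.9 and 19.0 CPM in empty control and 15.5, 39.3, 38.7 and 19.8 CPM in empty isoproterenol libraries, and 43.0, 43.3, 58.5 and 36.9 CPM in sgRNA control and 39.7, 44.5, 48.9 and 24.1 CPM in sgRNA isoproterenol libraries. Both empty vector libraries of replicate 6 and the isoproterenol library of replicate 3 were low, and the groups overlapped. The isoproterenol log2 fold change was −0.37 (SE 0.23, adjusted p = 0.450) without and −0.38 (SE 0.14, 95% interval −0.68 to −0.08, adjusted p = 0.0677) with the block, lower in 6 of 8 pairs, and did not pass in either. Leaving out replicate 3 alone brought it to −0.21 without and −0.22 with the block (adjusted p = 0.883 and 0.170). Exons of *Esrra* share bases with *Trmt112* on the opposite strand, whose own log2 fold change was 0.13 (adjusted p = 0.570) without and 0.12 (adjusted p = 0.252) with the block.

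*Nrf1* (ENSMUSG00000058440.14, GRCm38 chr6:30047988-30153458, plus strand) and *Tfam* (ENSMUSG00000003923.14, GRCm38 chr10:71225464-71238280, minus strand) showed small values. *Nrf1* averaged 23.3 ± 2.86 CPM in empty control, 21.3 ± 0.798 in empty isoproterenol, 23.1 ± 1.41 in sgRNA control and 22.4 ± 1.99 in sgRNA isoproterenol libraries (SD, n = 4). Its blocked isoproterenol log2 fold change was −0.08 (95% interval −0.21 to 0.05, adjusted p = 0.386). Leaving out a replicate number moved this *Nrf1* value from −0.16 (replicate 3) to −0.03 (replicate 5). Without the block, leaving out a single library gave −0.12 (replicate 3 of empty control) to −0.05 (replicate 5 of empty control). *Tfam* averaged 67.6 ± 5.77, 66.0 ± 6.34, 66.0 ± 4.39 and 72.5 ± 5.47 CPM in the same order of groups, and its blocked value was 0.05 (95% interval −0.04 to 0.14, adjusted p = 0.434).

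The fusion and fission genes gave no call either. *Mfn2* (ENSMUSG00000029020.13, GRCm38 chr4:147873599-147904704, minus strand) read 70.1, 63.7, 81.9 and 61.2 CPM in empty control, 47.0, 54.8, 89.7 and 54.7 CPM in empty isoproterenol, 71.2, 62.2, 78.0 and 55.8 CPM in sgRNA control and 60.9, 46.3, 74.8 and 57.6 CPM in sgRNA isoproterenol libraries. Replicate 5 was again the highest in each group, and 6 of 8 pairs were lower with isoproterenol. With the block its log2 fold change was −0.18 (SE 0.07, 95% interval −0.34 to −0.02, adjusted p = 0.0996), and −0.16 (adjusted p = 0.582) without the block. Leaving out a single library moved the *Mfn2* value without the block from −0.28 (replicate 5 of empty isoproterenol) to −0.11 (replicate 3 of empty isoproterenol). With the block, leaving out a replicate number gave −0.25 (replicate 5) to −0.11 (replicate 3). *Mfn1* (ENSMUSG00000027668.13, GRCm38 chr3:32529465-32579239, plus strand), *Opa1* (ENSMUSG00000038084.16, GRCm38 chr16:29579334-29654884, plus strand) and *Dnm1l* (ENSMUSG00000022789.15, GRCm38 chr16:16312230-16358959, minus strand) had blocked log2 fold changes of 0.06, 0.03 and 0.04, with adjusted p of 0.543, 0.714 and 0.610. Their 95% intervals were −0.07 to 0.19, −0.07 to 0.12 and −0.07 to 0.16. Salmon divides reads that fit transcripts of several genes, so the split between the paralogs *Mfn1* and *Mfn2* is uncertain.

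**Figure D2:**
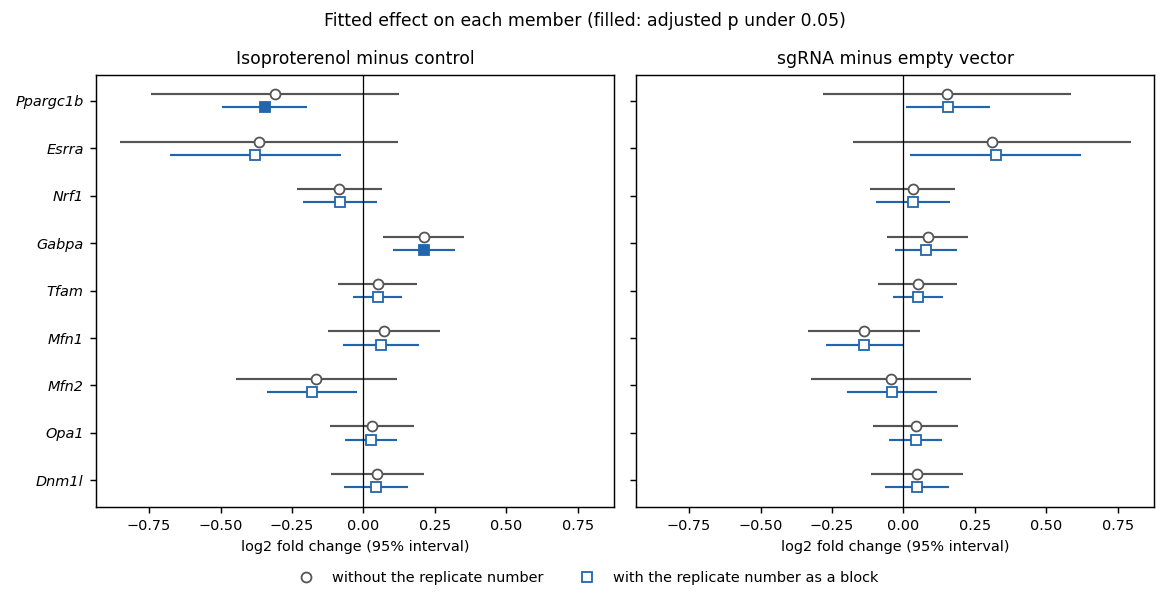
Log2 fold change (horizontal axis) of each tested member for isoproterenol minus control, averaged over plasmids (left), and sgRNA minus empty vector, averaged over treatments (right). Points are edgeR estimates from 16 libraries, bars their 95% intervals, circles the fit without and squares the fit with the replicate block, and filled symbols passed an adjusted p under 0.05, which only *Gabpa* (0.21) and *Ppargc1b* (−0.35) did, with the block and for isoproterenol.

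The second comparison asked whether activation of *Gm15551* moves the same genes. None of the 9 tested members passed for the sgRNA effect averaged over treatments in edgeR's quasi-likelihood test, without the block (0 of 13150 genes passed, 0%, and 3.32% had an unadjusted p under 0.05), with it (0.586% of all genes passed) or in DESeq2 (0.0989%). Members below 0.05 before adjustment numbered 0 without the block and 3 in the blocked fit, where 11.5% of all genes were below that bound. These 3 were *Ppargc1b*, *Esrra* and *Mfn1*. *Ppargc1b* was higher in the sgRNA library of 8 of 8 pairs, as were 1.01% of all tested genes, by 0.01 to 0.42 in log2 CPM, and the fit with the block gave 0.16 (SE 0.07, adjusted p = 0.410). *Mfn1*, with 35.6, 43.6, 44.5 and 40.2 CPM in empty control against 33.2, 39.2, 38.1 and 32.8 CPM in sgRNA control libraries and 36.7, 36.4, 50.9 and 41.9 against 34.6, 34.1, 47.2 and 40.6 CPM under isoproterenol, was lower in 8 of 8 pairs, as were 2.07% of all tested genes, and the fit with the block gave −0.14 (SE 0.06, adjusted p = 0.426). *Esrra* was higher in 6 of 8 pairs, at 0.32 with the block (SE 0.14, adjusted p = 0.396). Its largest pair differences were 1.35 (replicate 3 under isoproterenol) and 0.95 (replicate 6 in control), where the empty vector library was low. The other *Esrra* pairs ran from −0.26 to 0.34. Ribosomal RNA shares averaged 29.0% and 36.8% in the empty vector groups against 19.1% and 21.1% in the sgRNA groups, so plasmid and this share are not fully separable. The other 6 members had blocked log2 fold changes between −0.04 (*Mfn2*) and 0.08 (*Gabpa*). Without the block, leaving out a single library moved the sgRNA log2 fold change of *Ppargc1b* from 0.02 (without replicate 5 of sgRNA isoproterenol) to 0.34 (without replicate 5 of empty isoproterenol). That of *Mfn1* moved from −0.18 to −0.08 with the same 2 libraries left out, and that of *Esrra* from 0.19 (without replicate 6 of empty control) to 0.42 (without replicate 4 of empty isoproterenol). These pairs reuse the libraries of the isoproterenol comparison. Beside these values, in the blocked fit, 1 of 6 tested brown adipocyte genes passed, *Cidea*, which was higher with the sgRNAs (1.05, adjusted p = 0.0348), with all 6 positive. Of 5 tested preadipocyte genes 1 passed, *Ly6a*, which was lower (−0.74, adjusted p = 0.00491), with 2 positive and 3 negative, and their part in the member values was not tested.

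The plasmids did not set the members apart in their response to isoproterenol in a test of that difference. The interaction passed for 0 of the 9 members and 0 of 13150 genes in edgeR without and with the block (0% in each), with 0.395% and 1.51% of all genes at an unadjusted p under 0.05, and DESeq2 also passed 0 genes. The smallest blocked p among the members was that of *Tfam*, whose isoproterenol log2 fold change was −0.04 in empty and 0.13 in sgRNA cells, a difference of 0.17 (SE 0.08, unadjusted p = 0.0531, adjusted p = 1). Intervals of the difference were wide for *Esrra*, at −0.33 to 0.87 with the block, and narrower for *Gabpa*, at −0.24 to 0.19.

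Replicate number accounted for most of the variation of most members. Having 4 levels, more than the other factors, it would be expected to take the larger share even without any effect. It took 72.9% of the sum of squares of log2 CPM for *Opa1*, 72.6% for *Ppargc1b*, 64.6% for *Tfam* and 62.9% for *Mfn2*, against a median of 46.8% over all tested genes. Isoproterenol took 47.8% for *Gabpa*, the only member in which it exceeded the replicate share (21.8%), against a median of 6.79% over all genes. For the other 8 members it took between 1.46% (*Opa1*) and 17.1% (*Ppargc1b*). The sgRNA share was highest for *Mfn1* (14.6%) and *Esrra* (12.2%), against a median of 2.38%. Replicate 5 gave the highest mean of the 4 replicate numbers for *Ppargc1b* (33.0 CPM), *Mfn2* (81.1 CPM), *Opa1* (151 CPM), *Mfn1* (45.2 CPM), *Gabpa* (89.4 CPM), *Esrra* (48.2 CPM) and *Nrf1* (23.9 CPM). Replicate 6 gave the lowest for *Dnm1l* (113 CPM), *Opa1* (127 CPM), *Tfam* (61.9 CPM) and *Esrra* (24.9 CPM).

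**Figure D3:**
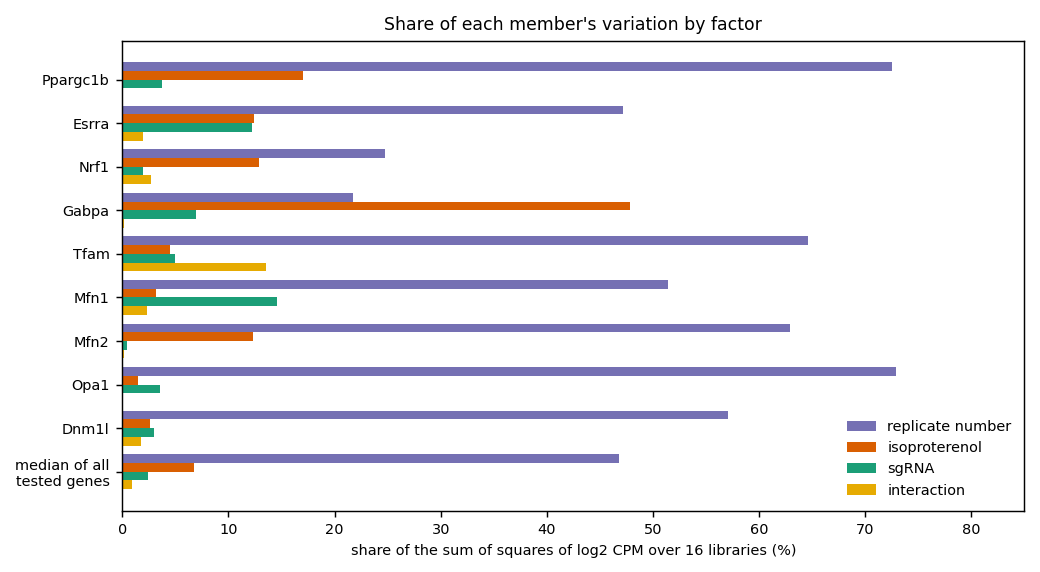
Share of the sum of squares of log2 CPM over 16 libraries (horizontal axis, %) taken by replicate number, isoproterenol, sgRNA and their interaction, for each tested member and as the median over all tested genes; the remainder is not drawn. Isoproterenol is the longest bar for *Gabpa* (47.8%), and replicate number is for the other 8 members (72.6% for *Ppargc1b*).

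The wider pathway was read from lists of genes around the members, beside 4.49% of all tested genes that passed for isoproterenol without the block and 21.3% with it. With the block, 4 of 13 cofactors, 2 of 19 mitochondrial DNA genes, 3 of 12 fission genes, 4 of 18 inner membrane genes and 2 of 14 outer membrane genes passed. Among 15 cofactors and upstream regulators, 13 were tested, and isoproterenol changed 2 of them without the block. *Ppargc1a*, the cold-inducible paralog of *Ppargc1b*, rose from 37.9 ± 9.31 to 60.3 ± 19.4 CPM in empty and from 40.7 ± 7.52 to 68.8 ± 13.4 CPM in sgRNA cells (SD, n = 4), with a log2 fold change of 0.71 (adjusted p = 0.0128). The corepressor gene *Nrip1*, whose product RIP140 holds back oxidative genes in fat, fell by 0.37 on the log2 scale (adjusted p = 0.0410). The block added *Gabpb1*, the partner subunit of *Gabpa* in GABP, at 0.23 (adjusted p = 0.0378), and *Prkaa1*, a catalytic subunit of AMPK, at 0.21 (adjusted p = 0.00595). *Esrrb* (at most 1 count) and *Perm1* (at most 10) were not tested. The list median was 0.09 without the block, against 0.0047 over all genes tested.

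All 19 genes of mitochondrial DNA maintenance and transcription were tested, and 1 passed without the block. *Mgme1*, a mitochondrial exonuclease, fell by 0.37 on the log2 scale (adjusted p = 0.00222), from 34.4 ± 3.26 to 25.8 ± 1.58 CPM in empty and from 35.9 ± 0.995 to 28.6 ± 2.02 CPM in sgRNA cells (SD, n = 4). With the block, the mitochondrial transcription factor gene *Tfb1m* also fell, by 0.26 (adjusted p = 0.0208), while *Dguok* and *Tfb2m* stood at −0.12 and 0.12 (adjusted p = 0.164 and 0.190). The list median was −0.02. All 13 mRNAs encoded by mitochondrial DNA were tested and 0 passed in edgeR in either fit, nor had any an unadjusted p under 0.05, and their median was 0.02. *mt-Co1*, a cytochrome oxidase subunit, had the largest of the named values, 0.15 (SE 0.13, adjusted p = 0.622), followed by *mt-Nd6* at 0.14 (adjusted p = 0.748), *mt-Co2* at 0.10 (adjusted p = 0.813) and *mt-Co3* at 0.06 (adjusted p = 0.873), all without the block.

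Among the partners of *Dnm1l*, 12 of 13 fission genes were tested, and 0 passed without the block, where 2 were below 0.05 before adjustment. In the blocked fit, *Spire1*, an actin nucleator linked to fission, rose by 0.48 (adjusted p = 0.00135), whereas *Mief2*, an outer membrane receptor for DRP1, fell by 0.34 (adjusted p = 0.00975) and the dynamin gene *Dnm2* fell by 0.20 (adjusted p = 0.0295). *Mtfr1l* stood at 0.10 (adjusted p = 0.139). Of the 18 inner membrane genes around *Opa1*, all tested, *Chchd6*, a subunit of the MICOS complex of crista junctions, fell by 0.41 without the block (adjusted p = 0.0259). The block added falls of the protease subunit gene *Spg7* (−0.43, adjusted p = 0.00671), of *Samm50* (−0.29, adjusted p = 0.00615), which works in outer membrane protein assembly and binds MICOS, and of *Immt*, the core MICOS subunit (−0.16, adjusted p = 0.00999). *Yme1l1*, a protease that cuts OPA1, stood at 0.13 (adjusted p = 0.132). The outer membrane and turnover list had 14 of 16 genes tested and 0 passed without the block, where 3 were below 0.05 before adjustment, and in the blocked fit *Pink1*, a kinase of mitophagy, fell by 0.37 (adjusted p = 0.00238) and *Miga2*, a fusion factor, by 0.42 (adjusted p = 0.00441), while *Rhot1* and *Trak1*, of mitochondrial transport, stood at 0.12 and −0.16 (adjusted p = 0.0577 and 0.0887).

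Nuclear-encoded respiratory and citrate cycle genes, the targets of these regulators, gave 0 of 22 calls in edgeR without the block. In that fit 0 of them were below 0.05 before adjustment. Of all tested genes, 21.3% passed in the blocked fit in either direction, and 10.4% passed as lower. Among the 22 genes the blocked fit passed 7, all lower. They were *Ndufs1* (−0.15), *Ndufv1* (−0.27), *Sdha* (−0.20), *Uqcrfs1* (−0.16), *Atp5f1b* (−0.19), *Atp5mc1* (−0.21) and *Cs* (−0.16), with blocked adjusted p between 0.00615 and 0.0474. The list median was −0.07 in both fits. Any link of these genes to the values of the members was not tested. For the sgRNA effect, 0 genes of these 7 lists passed in edgeR's test in either fit, at list medians between −0.01 and 0.07 without the block, against −0.0090 over all genes.

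**Figure D4:**
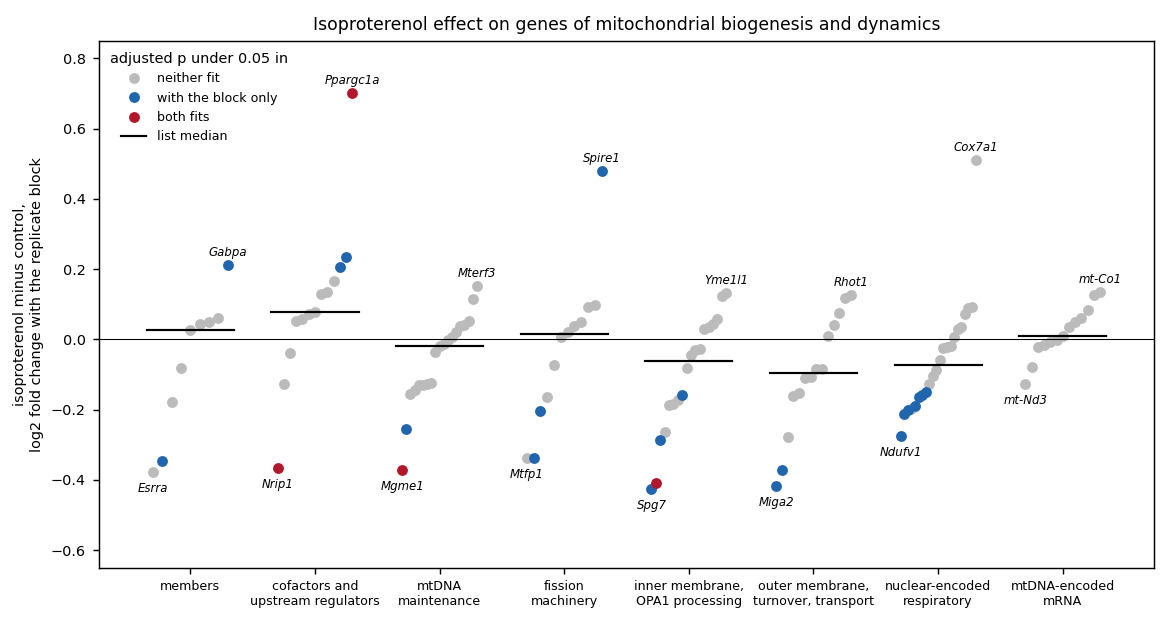
Isoproterenol log2 fold change with the replicate block (vertical axis), averaged over plasmids, for every tested gene of the members and of the 7 lists around them. Each point is a gene, black bars are list medians, grey points passed in neither fit, blue points with the block only and red points in both fits; the lowest and highest gene of each list is named. *Ppargc1a* is the highest point (0.70), and the called respiratory genes lie below 0.

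Markers of the cells moved with the same treatment, for which 4.49% of all tested genes passed without the block and 21.3% with it. All 8 adipocyte genes had a negative isoproterenol log2 fold change, 3 of them passed without the block and 6 with it (*Adipoq* −1.06, adjusted p = 0.00222 without the block), and their summed level was 16403 to 27203 CPM in empty control, 12498 to 22026 CPM in empty isoproterenol, 20083 to 25591 CPM in sgRNA control and 13425 to 23743 CPM in sgRNA isoproterenol libraries. In bulk RNA, fewer cells of a type and less RNA per cell cannot be told apart. Of 8 brown adipocyte genes 6 were tested, with *Ucp1* higher (4.03, adjusted p = 7.36e-06) and *Ebf2* lower (−0.48, adjusted p = 0.0109) without the block, and with it *Cidea* (adjusted p = 0.000746) and *Elovl3* (adjusted p = 0.00329) were also higher. Of 6 macrophage genes only *Cd68* and *Cd14* were tested, and both were higher with isoproterenol (0.91 and 0.82), with a summed list level of 8.91 to 17.2 CPM in control and 17.2 to 27.4 CPM in isoproterenol groups, while *Adgre1*, *Ptprc* and *Csf1r* had at most 1, 2 and 5 counts. Of 8 preadipocyte genes 5 were tested and 0 passed without the block, with summed levels of 31.8 to 129 CPM in control and 40.1 to 154 CPM in isoproterenol groups, and with the block *Ly6a* was higher (1.09, adjusted p = 4.92e-06). Of 6 muscle genes 2 were tested, *Des* was higher with the block only (0.49, adjusted p = 0.0140), *Myod1* had 0 counts in all libraries, and the summed level stayed between 4.05 and 16.6 CPM. Their part in the values of *Gabpa* and *Ppargc1b* was not tested.

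The genes most like the called members over the 16 libraries were looked up by Pearson's r of log2 CPM, as a description in which all points share library scaling and replicate number. For *Ppargc1b* they were *Osbpl11* (0.95), *Col15a1* (0.95) and *Cs* (0.95). For *Gabpa* they were *Amd1* (0.89), *Ccnl1* (0.89) and *Ptbp2* (0.88).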

How the data were processed

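The members, gene lists, motifs and tests were chosen with earlier results of these data known. Per the labels, polyadenylated RNA was made into paired-end libraries. Per the study's methods, the authors filtered reads by quality (cutadapt). They estimated transcript abundance (salmon) on GENCODE M22 transcripts of GRCm38, alone or with RNAcentral. Tool versions and strand use are not given in the sources used here. The authors deposited estimated counts per gene as whole numbers, not normalized and with no gene removed. Groups and replicate numbers came from the sample titles, and all 16 libraries were used.

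These counts were tested with edgeR 4.0.16 (R 4.3.3). filterByExpr (minimum count 10, minimum total 15) kept 13150 genes, TMM scaled the libraries, and 4 group means were fitted with glmQLFit. Contrasts were tested two-sided with glmQLFTest and Benjamini-Hochberg adjustment over all 13150 genes, and a gene passed at an adjusted p under 0.05. Log2 CPM used a prior count of 2. Fold changes, intervals (95%) and adjusted p-values in the text come from these fits unless DESeq2 1.42.0 is named. Counting precision follows from the depth of 9053521 to 16546187 counts per library.

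After subtraction of group means, log2 CPM values correlated between libraries of the same number in all 24 pairs (0.22 to 0.61), and had a median of −0.21 between libraries that differed in number and group (−0.51 to 0.52, which overlaps the range of same-numbered pairs). Every same-numbered correlation was above 0.1, so the numbers were taken to pair the libraries. The median biological coefficient of variation was 18.0% without and 9.96% with the replicate block.

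Alternatives were the replicate block, DESeq2, RLE scaling, no filter on low counts, the ribosomal RNA gene removed or its share as a covariate, a bound of 0.5 on the absolute log2 fold change, and leaving out each library or replicate number. Leaving out the 3 libraries above 40% ribosomal RNA was added after seeing the data. Each list named up to 4 genes with the smallest isoproterenol p, and further names are all other genes that passed. Gene models were from GENCODE M21 of GRCm38, promoters from RefSeq. The test without the block was run on simulated data, and no outcome of that run is used here. The fit with the block was not simulated.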

Additional observations from a re-analysis of the deposited data

Results flagged for a closer look

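In each of the 36 combinations of a tested member and a group, the highest or lowest library was compared with its nearest neighbour relative to the range of the 4 libraries, by Dixon's 95% critical value. By chance about 1 in 20 such groups would be flagged if they were independent, and 6 were flagged. Same-numbered libraries deviated together across groups, so the 36 combinations are not independent and no excess is read from the 6. Of these, 4 were *Ppargc1b* in replicate 5, at 32.6 CPM in empty control (nearest library 21.2 CPM), 32.1 CPM in empty isoproterenol (16.3 CPM), 35.0 CPM in sgRNA control (23.5 CPM) and 32.2 CPM in sgRNA isoproterenol (18.0 CPM). *Gabpa* stood out at 104 CPM in replicate 5 of sgRNA isoproterenol, against 86.7 CPM in the nearest library. *Dnm1l* stood out at 133 CPM in replicate 3 of empty control, against 122 CPM in the nearest. The ribosomal RNA gene took 47.3% and 51.8% of counts in the empty vector libraries of replicate 5 and 20.2% and 20.0% in its sgRNA libraries, while *Ppargc1b* was high in all 4, and its part in this was not tested.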

How the results depend on the processing

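With the replicate block, 2 members (*Gabpa* and *Ppargc1b*) passed for the averaged isoproterenol effect in place of 0, also with the block and the ribosomal RNA share as covariate (2) and without the 3 libraries above 40% ribosomal RNA (2). DESeq2 passed 1. Both blocked values (0.21 and −0.35) lie inside a bound of 0.5 on the absolute log2 fold change, so with that bound in addition 0 members pass in either fit. Leaving out libraries or replicate numbers gave 0 to 2. With the block, *Gabpa* passed in 4 of 4 fits without a replicate number (log2 fold change 0.16 to 0.23, adjusted p 0.0166 to 0.0494) and *Ppargc1b* in 4 of 4 (−0.45 to −0.29, adjusted p 0.000903 to 0.0407). Without it, *Gabpa* passed in 0 of 20 leave-out fits and *Ppargc1b* only without replicate 5. Within empty vector cells the block passed 1 member (*Ppargc1b*), but 0 with the covariate and 0 without the 3 libraries. Within sgRNA cells it passed 1 (*Ppargc1b*), also 1 with the covariate and 2 without the 3 libraries (*Ppargc1b* and *Gabpa*). Leaving out gave 0 to 1 within either plasmid, with a call in 1 of 24 fits each. Neither *Gabpa* nor *Ppargc1b* passed with the covariate or without the 3 libraries when the block was left out. The sign changed only for values that passed in no fit. For isoproterenol these were *Opa1* without the 3 libraries (−0.015 without and −0.011 with the block, −0.0064 to 0.051 on leaving out) and *Mfn1* on leaving out (−0.0016 to 0.17). For the sgRNAs they were *Tfam* (−0.014, and −0.0076 with the block), *Dnm1l* (−0.025 and −0.033) and *Mfn2* (0.17 and 0.0090) with the covariate, *Mfn2* without the 3 libraries (0.089) and on leaving out (−0.11 to 0.077), and *Nrf1* on leaving out (−0.00052 to 0.073). For the interaction they were *Ppargc1b* (0.0097 with the block, 0.18 and 0.018 with the covariate, 0.10 and 0.053 without the 3 libraries, −0.30 to 0.36 on leaving out), *Opa1* (0.00094 with the block, 0.025 with the covariate, 0.087 and 0.077 without the 3 libraries, −0.074 to 0.066 on leaving out), *Gabpa* (0.00043 with the covariate, 0.0026 without the 3 libraries with the block, −0.10 to 0.031 on leaving out), *Mfn2* (−0.00060 without the 3 libraries with the block, −0.12 to 0.25 on leaving out) and *Esrra* (−0.12 to 0.55 on leaving out). The cause of these changes was not tested. All genes passing for isoproterenol numbered 590 without the block, 2799 with it and 973 in DESeq2. The blocked 95% intervals for isoproterenol lay between −0.07 and 0.16 for *Tfam*, *Opa1* and *Dnm1l*.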
